A study of Mus musculus with 10 samples.

Results

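Microglia grown for 3 weeks in mixed glial cultures (in vitro) were compared with microglia from brain slices kept in culture for the same 3 weeks. The comparison used 4 of the 10 libraries of the series, 2 for each culture, taken by their labels. Within a library, UMIs were added up over cells with at most 5% mitochondrial UMIs, at least 400 genes and at most 30000 UMIs. This left 5099 in vitro cells and 4893 slice cells, together 9992 of the 19059 cells kept in all 10 libraries. Each culture was started from the brains of neonatal C57BL/6 mice, and no transgene was named for either group. The slices were coronal brain slices without cerebellum or olfactory bulb, grown on membrane inserts in medium with horse serum to which human PDGF was added at each change, and slices were pooled where more cells were needed before cold dounce homogenisation and a Percoll step. The in vitro microglia were grown among the other glia of dissociated cortices from which the meninges had been removed, in medium with horse and fetal bovine serum, and were collected from the culture medium. In both groups live cells with high CD11b and intermediate CD45 were sorted, with about 1000 live cells per sample as the stated input, and sequenced with the 10x Genomics 3′ kit. The culture format therefore differed together with the serum, the added PDGF, the brain regions used and the way the cells were set free. The base medium, its supplements and the incubation temperature differed as well, and none of these can be told apart. Microglia sorted from adult C57BL/6 brain, 2 libraries from the same series, are given as a reference without a test.

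Microglia are the resident macrophages of the brain parenchyma. Their adult gene programme depends on signals from the surrounding tissue, among them TGF-beta and ligands of the CSF1 receptor, and fades when the cells are moved to a culture dish. A second family of brain macrophages lives at the borders, in the meninges, choroid plexus and perivascular spaces, and expresses the mannose receptor and other scavenger receptors. Microglia near damage or plaques can also enter an activated state, known as disease-associated, that depends in part on the lipid receptor TREM2.

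The in vitro libraries held 2417 and 2682 cells of 2557 and 2825 barcodes, and the slice libraries 1153 and 3740 cells of 1221 and 3829 barcodes. Library totals were 33957132 and 39689540 UMIs in vitro and 7819156 and 22332658 UMIs in the slices, with medians of 12858 and 13966 against 6112 and 5266 UMIs per cell. The ceiling of 30000 UMIs took out 81 and 74 in vitro cells and 0 slice cells. Slice replicate 1 was labelled as part of another study than the other 3 libraries. It also held 9 *Xist* UMIs and 258 of the Y-linked *Ddx3y*, while slice replicate 2 held 26353 and 0, and the in vitro libraries held both genes (10117 and 15219 *Xist*, 684 and 524 *Ddx3y*), so that sex and study label differed together between the slice replicates. Levels are given in CPM, a library's counts over its total after scaling with TMM factors, which set the bulk of genes equal between libraries. At this depth a count of 0 allows up to 0.0963 and 0.0842 CPM in the in vitro libraries and 0.388 and 0.140 CPM in the slice libraries (3 counts, counting error only). A two-sided permutation test of 2 libraries against 2 has 0.333 as its smallest p, and each p below is from edgeR's quasi-likelihood test over the whole table, with Benjamini-Hochberg adjustment. The series calls the libraries of a group biological replicates, and the litters behind them are not given.

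Both groups held the markers of the sorted cell type. Of 12 microglia markers none was at 0 in any of the 4 libraries, and their summed level was 9807 and 8962 CPM in vitro, 17223 and 16433 CPM in the slices and 29820 and 28650 CPM in adult microglia. Cells with UMIs of at least 3 microglia markers made up 98.0% and 96.8% of in vitro cells and 99.4% and 97.2% of slice cells when each cell was thinned to 1800 UMIs, which left out 0, 0, 23 and 51 cells below that depth. Markers of border macrophages stood apart. Their 10 genes summed to 5547 and 5458 CPM in vitro against 293 and 202 CPM in the slices and 160.4 and 121 CPM in adult microglia, and 9 of the 10 were called higher in vitro. Of these markers 0 were at 0 in the in vitro libraries, and 4 and 2 were at 0 in the slice libraries.

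In cells thinned to 1800 UMIs, at least 3 border macrophage markers were found in 64.2% and 62.5% of in vitro cells, and 63.3% and 61.0% of in vitro cells held at least 3 microglia markers as well. The shares were 0.796% and 0.542% in the slices and 0.148% and 0.0524% in adult microglia, where *Stab1* alone, at 147 and 113 CPM, made up most of the summed level. With all UMIs the shares were 98.0% and 98.5% in vitro and 6.50% and 2.57% in the slices. Most in vitro barcodes thus held UMIs of both marker lists, and what free RNA or doublets add to such barcodes was not tested. The part of these markers in the results was not tested beyond a fit without the cells that hold at least 3 markers of another cell type, which left 49 and 38 in vitro cells. Summed levels of the other types were low. Monocyte markers reached 83.2 and 131 CPM in vitro and 243 and 173 CPM in the slices, oligodendrocyte lineage markers 85.2 and 75.5 against 172 and 116 CPM, and astrocyte markers 5.94 and 6.90 against 37.9 and 40.9 CPM. Neutrophil, dendritic cell, lymphocyte, neuron, vascular and erythrocyte markers each summed to less than 30 CPM in each of the 4 libraries.

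**Figure D1:**
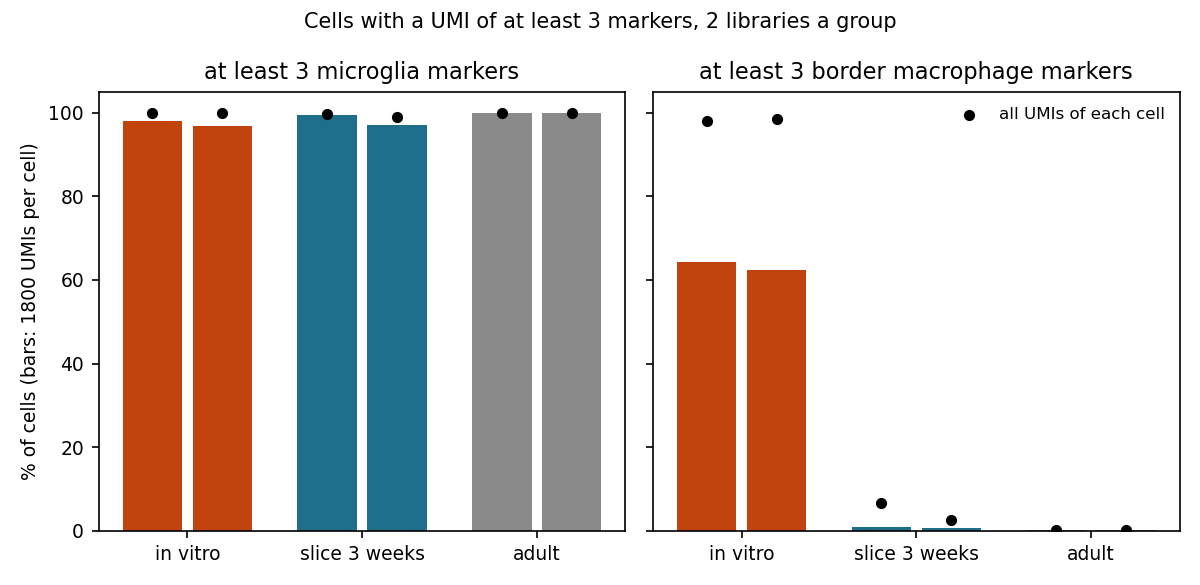
Share of cells (%) with a UMI of at least 3 microglia markers (left) or at least 3 border macrophage markers (right), 2 libraries a group. Bars are cells thinned to 1800 UMIs and points are all kept cells with all their UMIs. The bars leave out cells below 1800 UMIs (0 and 0 in vitro, 23 and 51 slice, 413 and 1618 adult), and the in vitro bars on the right stand at 64.2% and 62.5% against less than 1% in each slice and adult library.

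Of 12155 genes tested, 1616 (13.3%) were called higher and 2434 (20.0%) lower in vitro than in the slices, together 33.3%, at an adjusted p below 0.05 and a fold change over 1.5. The median log2 fold change of all genes tested (in vitro minus slice, as in every value below) was −0.10. The spread between replicates had a biological coefficient of variation of 18.2% over the 10 libraries of the fit. That fit also holds the slice 1 day and slice 1 week pairs, which differed in cells with at least 3 neutrophil markers. These were 163 of 518 and 1008 of 1014 cells at 1 day and 148 of 148 and 1 of 61 at 1 week. Each SE and adjusted p rests on this shared spread and not on the 4 compared libraries alone. With in vitro replicate 1 or 2 left out, 1387 and 1229 genes were called lower, and 2083 of the 4050 called genes were called in the same direction with each of the 4 libraries left out in turn. Such a fit holds 1 library in that culture, which is taken to vary like the replicates of the other groups. Of 237 called genes followed by name, the fold of 98 moved by more than 1.5 times when some library was left out, and the sign of 0 turned. Where such a difference is printed below, the smallest of its moved values follows it, unless 3 or fewer counts were left in a group. In vitro cells held more UMIs than slice cells, and on UMIs per cell without scaling for depth the median of all genes was 0.97, a shift of 1.07, and 6407 genes were called higher and 674 lower. All changes below are therefore relative to the bulk of genes, and the median per cell is given beside list medians below −0.50. Per cell, the remaining list medians below 0 (TGF-beta signalling, MHC class I, pattern recognition, cholesterol and fatty acid synthesis, DNA replication and mitosis, G1 regulators, cytosolic ribosomal proteins and microglial transcription factors) lay above 0. For the genes named below as higher or lower, the 2 in vitro libraries did not overlap with the 2 slice libraries, with *Il1r2* as the exception. Counts of list members below are to be read beside the 13.3% and 20.0% over all genes. In the fit without cells holding 3 markers of another type, 509 of 10460 genes tested were called higher and 785 lower.

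**Figure D2:**
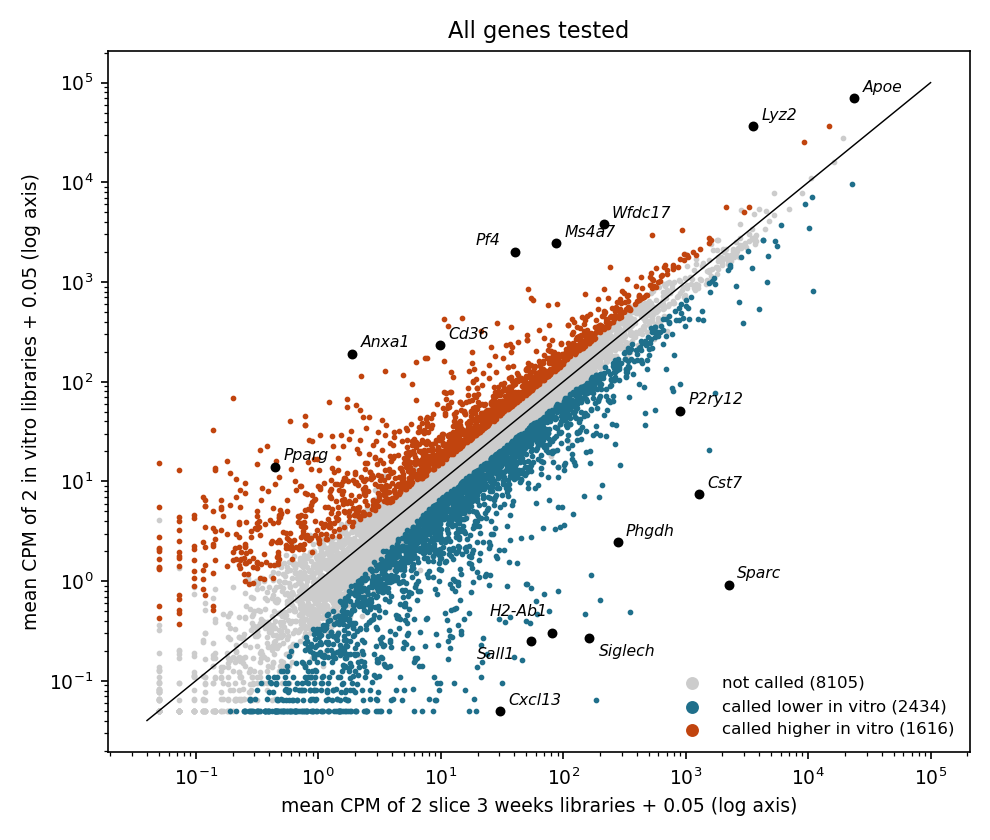
Mean CPM + 0.05 of each gene tested in the 2 slice 3 weeks libraries (horizontal) and the 2 in vitro libraries (vertical), both on log axes, with genes called higher in vitro in orange (1616), called lower in blue (2434) and not called in grey. The line marks equal levels, and *Sparc*, *Siglech*, *Cst7*, *Phgdh* and *Cxcl13* lie far below it while *Pf4*, *Ms4a7*, *Anxa1* and *Pparg* lie far above.

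**Figure D3:**
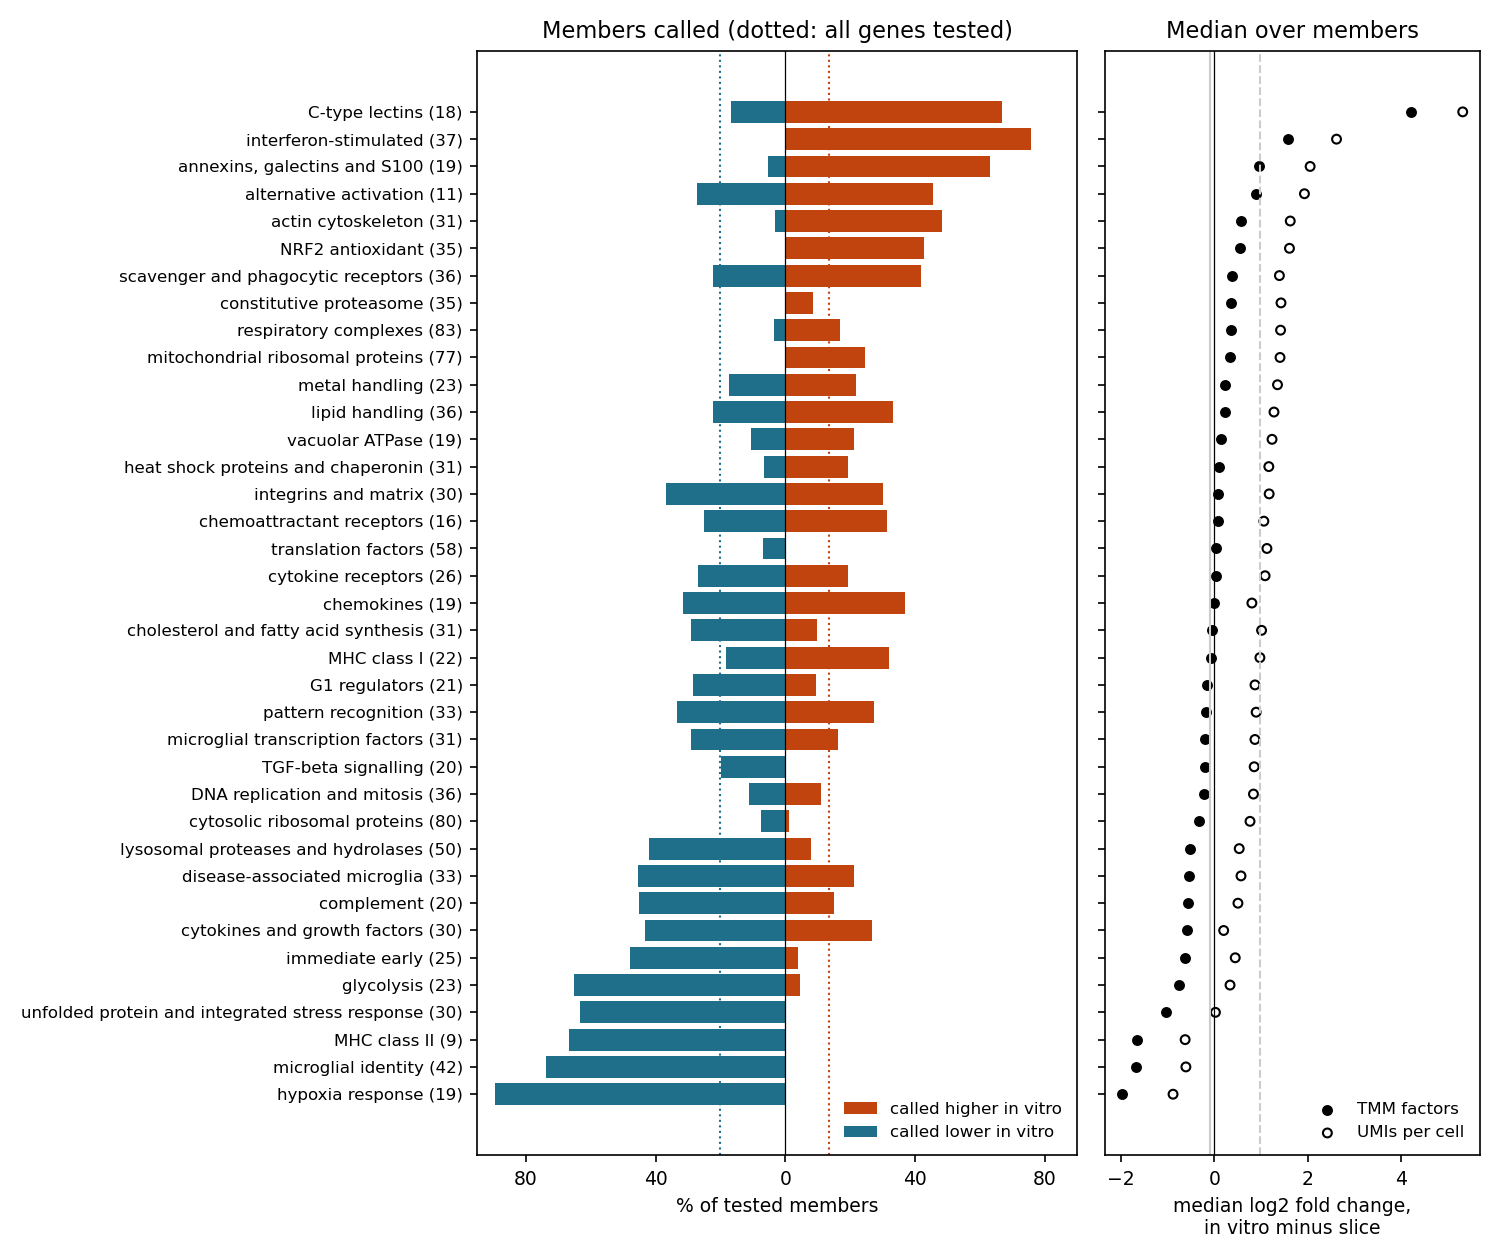
For 37 gene lists with the number of tested members in brackets, the share called higher (orange) or lower (blue) in vitro beside the shares over all genes tested (dotted, 13.3% and 20.0%), and on the right the median log2 fold change with TMM factors (filled) and on UMIs per cell (open). The grey lines on the right mark the medians of all genes tested, −0.10 (solid) and 0.97 (dashed), and the lists run from C-type lectins at the top (median 4.23) to the hypoxia response at the bottom (median −1.99).

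Genes of microglial identity were lower in vitro. Of 42 members tested, 31 were called lower and 0 higher, with a median of −1.68 (−0.61 per cell). *P2ry12*, the purinergic receptor that steers microglial processes toward ATP, was at 60.02 and 42.6 CPM in vitro and 978 and 818 CPM in the slices, and at 6486 and 7398 CPM in adult microglia. Its in vitro level was 17.5-fold below the slice level (log2 −4.13 ± 0.32 SE, edgeR adjusted p = 9.0e-06). *Tmem119*, a surface protein used to tell microglia from other macrophages, was at 50.005 and 23.6 CPM in vitro and 535 and 389 CPM in the slices, a difference of −3.65 ± 0.42 (edgeR adjusted p = 1.0e-04). *Siglech*, a sialic acid binding lectin, was at 0.385 and 0.0561 CPM in vitro and 119 and 203 CPM in the slices (−9.51 ± 0.62, −8.59 without in vitro replicate 2, edgeR adjusted p = 2.8e-06). *Sparc*, a secreted matrix protein, was at 1.57 and 0.168 CPM in vitro and 2225 and 2282 CPM in the slices, and at 2858 and 2249 CPM in adult microglia. For each of these genes both in vitro libraries lay far below both slice libraries. The slice libraries lay below the adult ones for *P2ry12*, *Tmem119* and *Siglech* and overlapped with them for *Sparc*.

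A summed level cannot tell fewer cells with a transcript from less RNA per cell. In cells thinned to 1800 UMIs, *P2ry12* was seen in 10.0% and 7.94% of in vitro cells, 62.8% and 54.8% of slice cells and 99.9% and 99.9% of adult cells. *Tmem119* was seen in 8.32% and 4.40% of in vitro and 48.6% and 39.1% of slice cells, and *Siglech* in 0.0827% and 0.0373% against 19.1% and 26.9%. *Ms4a7* gave the opposite order, with 93.8% and 93.8% of in vitro cells, 8.41% and 5.80% of slice cells and 0.325% and 0.0524% of adult cells. Unthinned, *P2ry12* was seen in 47.2% and 38.4% of in vitro cells and 84.2% and 73.7% of slice cells.

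The checkpoint receptor gene *Lag3* was at 0.578 and 0.309 CPM in vitro and 306 and 402 CPM in the slices (−9.63), the adhesion receptor gene *Adgrg1* at 0.193 and 0.0561 CPM in vitro and 42.2 and 36.6 CPM in the slices (−8.24, −7.52 without in vitro replicate 2), and the fructose transporter gene *Slc2a5* at 0.514 and 0.140 CPM in vitro and 53.8 and 54.3 CPM in the slices (−7.37, −6.61 without in vitro replicate 2). Each was below 1 CPM in both in vitro libraries. *Olfml3*, *P2ry13*, *Selplg*, *Crybb1* and *Gpr34* were also lower, with log2 fold changes of −4.50, −3.50, −3.26, −4.69 and −2.34. Smaller differences were called for *Cx3cr1*, the receptor for the neuronal chemokine fractalkine (480.2 and 379.9 CPM in vitro and 1156 and 994 CPM in the slices, −1.32 ± 0.16, −0.26 per cell), for *Trem2* (1372 and 1414 CPM in vitro and 3193 and 3823 CPM in the slices, −1.33 ± 0.16, −0.25 per cell) and for the protease inhibitor gene *Cst3* (−1.56, −0.49 per cell). The slice and adult libraries overlapped for *Trem2* (adult 3229 and 2588 CPM). Not called were *Csf1r*, the receptor for CSF1 and IL-34, at 988 and 773 CPM in vitro and 1483 and 1031 CPM in the slices (−0.51 ± 0.21, edgeR adjusted p = 0.082), and *Aif1*, which encodes the marker IBA1, at 1002 and 731 CPM in vitro and 886 and 654 CPM in the slices (0.17 ± 0.19, edgeR adjusted p = 0.52). *Fcrls* was at 1811 and 1535 CPM in vitro and 2070.4 and 1060.2 CPM in the slices and was not called either. For *Aif1* and *Fcrls* the libraries of the groups overlapped.

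**Figure D4:**
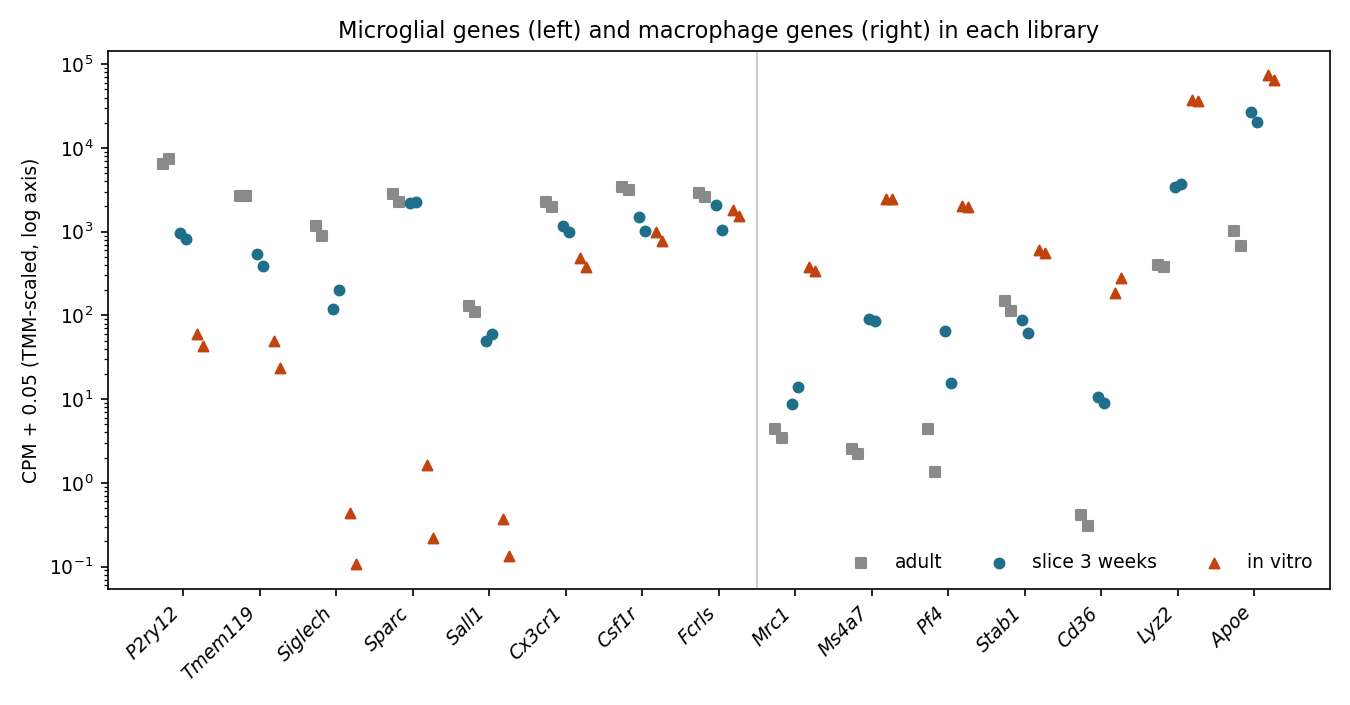
CPM + 0.05 on a log axis of 8 microglial genes (left of the line) and 7 macrophage genes (right) in each of 2 adult, 2 slice 3 weeks and 2 in vitro libraries. *P2ry12* falls from adult through slice to in vitro, *Sparc* is at the adult level in the slices, *Fcrls* overlaps between slice and in vitro, and *Ms4a7* and *Pf4* stand at 1992 CPM or more in vitro against less than 100 CPM in each of the other libraries shown.

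Among 31 microglial transcription factors, 5 were called higher and 9 lower (16.1% and 29.0%), with a median of −0.19 (0.87 per cell). Without cells holding 3 markers of another type 1 and 6 of 30 were called, with a median of −0.13. *Sall1*, a repressor that keeps microglia from other macrophage fates, was at 0.321 and 0.0842 CPM in vitro and 49.2 and 59.9 CPM in the slices, and at 128 and 108 CPM in adult microglia. This was a difference of −8.06 ± 0.33 (edgeR adjusted p = 2.2e-07), or −7.28 without in vitro replicate 2, and the in vitro libraries held 10 and 3 UMIs of the gene. *Zeb1* was at 1.32 and 0.954 CPM in vitro and 18.4 and 28.2 CPM in the slices (−4.37 ± 0.27), and the clock-related repressor genes *Bhlhe40* (−2.27) and *Bhlhe41* (−1.94) were lower. *Bhlhe40* was at 0.220 and 0.386 CPM in adult microglia, below both cultures. *Pparg*, a lipid-sensing nuclear receptor of tissue macrophages, moved the other way, at 13.7 and 14.3 CPM in vitro and 0.647 and 0.140 CPM in the slices and 0 in both adult libraries (5.55 ± 0.52, 4.48 without slice replicate 2, edgeR adjusted p = 5.3e-05). The oxysterol receptor gene *Nr1h3* (3.23), its partner *Rxra* (1.48), *Tfec* (2.81, 2.10 without slice replicate 2) and *Maf* (1.36) were also higher in vitro. *Spi1*, which encodes the myeloid master regulator PU.1, was at 527 and 503 CPM in vitro and 374 and 367 CPM in the slices and did not reach the fold of 1.5 (0.47 ± 0.14, edgeR adjusted p = 0.021). *Mef2c*, at 249.8 and 220.02 CPM in vitro and 456 and 486 CPM in the slices, was called lower but stood at a log2 change of 0.07 on UMIs per cell.

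Of 20 tested TGF-beta signalling genes, 4 were called lower and 0 higher, with a median of −0.21, so that the share called lower equalled the 20.0% over all genes. The 4 were the feedback inhibitor gene *Smad7* at 6.905 and 5.11 CPM in vitro and 55.1 and 65.9 CPM in the slices (−3.34 ± 0.22, edgeR adjusted p = 3.0e-06), the co-receptor gene *Eng* (−2.38), *Skil* (−1.98) and the type I receptor gene *Tgfbr1* at 47.8 and 45.5 CPM in vitro and 147 and 168 CPM in the slices (−1.76). *Smad7* and *Skil* are textbook targets of the pathway. *Tgfbr2* was at 73.8 and 71.1 CPM in vitro and 78.3 and 84.5 CPM in the slices and was not called.

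Border macrophage genes and C-type lectins were higher in vitro. Of 18 tested C-type lectins 12 were called higher and 3 lower, with a median of 4.23 (3.69 with the 2 genes at 0 in a group set to their bounds), and 9 and 1 of 13 tested were called without cells that held 3 markers of another type. A gene can pass the filter on counts through the group where it is high, and 8 of the 26 members were not tested. With a minimum of 50 counts 10 and 1 of 12 were called, with a median of 4.22. *Mrc1*, the mannose receptor, was at 383 and 341 CPM in vitro and 8.67 and 14.1 CPM in the slices, 31.1-fold higher in vitro (4.96 ± 0.29, edgeR adjusted p = 1.4e-06). *Cd93* was at 112 and 115 CPM in vitro and 1.55 and 2.84 CPM in the slices and at 0 in the adult libraries (5.57 ± 0.23, 6.25 without slice replicate 2). *Clec4d*, a receptor for mycobacterial glycolipid, was at 170.2 and 179.6 CPM in vitro and 5.05 and 9.64 CPM in the slices (4.50, 5.18 without slice replicate 2), and *Clec12a*, an inhibitory receptor, at 152 and 171 CPM in vitro and 11.5 and 9.69 CPM in the slices (3.95). *Clec4n* (3.42, 4.59 without slice replicate 2) was higher too, and *Clec4b1* held 1 count in the slices, a ratio of 91.4 (95% interval 16.2 to 3627). *Clec10a*, a galactose lectin, was at 6.94 and 6.85 CPM in vitro and 0 and 0.326 CPM in the slices (4.86). *Clec4a1* and *Clec4a2* were higher as well (5.29 and 4.74, and 4.65 for *Clec4a1* without slice replicate 2), though near-identical members of this family may share reads. *Clec4a2* was at 187 and 132 CPM in vitro, 7.89 and 4.56 CPM in the slices and 127 and 110 CPM in adult microglia, so that the slices lay below adult. The collagen receptor gene *Mrc2* was at 0 in both in vitro libraries and at 4.14 and 3.31 CPM in the slices, at least 78.5-fold lower in vitro. *Clec1a* (−3.41) and *Clec5a* (−1.29) were the other members called lower.

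The chemokine gene *Pf4*, a marker of border macrophages, was at 2043 and 1992 CPM in vitro and 65.1 and 15.5 CPM in the slices (5.67 ± 0.63, 5.02 without slice replicate 2, edgeR adjusted p = 9.0e-05), and the membrane protein gene *Ms4a7* at 2440.1 and 2439.5 CPM in vitro and 89.9 and 85.3 CPM in the slices (4.80 ± 0.34, edgeR adjusted p = 4.7e-06). *Stab1*, a scavenger receptor, was at 609 and 560.1 CPM in vitro and 88.9 and 61.5 CPM in the slices (2.96 ± 0.21) and differed by −0.05 without cells holding 3 markers of another type, a setting that uses *Stab1* itself as a marker. *Lyve1* and *Cd163* were low in both cultures. *Lyve1* was at 0.707 and 0.309 CPM in vitro and 0 and 0 CPM in the slices, at least 4.81-fold higher in vitro, and was not called without in vitro replicate 1 (edgeR adjusted p = 0.070) or slice replicate 2 (edgeR adjusted p = 0.13). *Cd163*, the haemoglobin scavenger receptor, was at 0.803 and 1.23 CPM in vitro and 0 and 0.0932 CPM in the slices, a ratio of 15.1 (95% interval 4.02 to 127) from counts. It was not called without in vitro replicate 2 (edgeR adjusted p = 0.063). *Folr2* was at 55.9 and 107 CPM in vitro and 39.1 and 24.4 CPM in the slices (1.38 ± 0.31). It was not called without in vitro replicate 2 (log2 0.90, edgeR adjusted p = 0.058) and stood at −0.62 without cells holding 3 markers of another type, where it is a marker as well.

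Of 36 tested scavenger and phagocytic receptors 15 were called higher and 8 lower, with a median of 0.38, and 12 and 5 without in vitro replicate 2. Without cells holding 3 markers of another type the counts were 5 and 5 of 29, with a median of −0.05. *Cd36*, a receptor for oxidised lipids, was at 187 and 282 CPM in vitro and 10.5 and 9.04 CPM in the slices, 24.2-fold higher in vitro (4.60 ± 0.22, edgeR adjusted p = 4.3e-07). *Msr1* (1.41) was also higher, and *Timd4* was at 2.63 and 1.21 CPM in vitro and 0 and 0.0466 CPM in the slices, a ratio of 54.7 (95% interval 9.63 to 2176) from counts. *Marco* was at 21.4 and 5.25 CPM in vitro and 0.259 and 1.397 CPM in the slices (3.69, 2.47 without in vitro replicate 1), with 2 counts in slice replicate 1, and was not called without cells holding 3 markers of another type. *Mertk*, a receptor for dying cells opsonised with phosphatidylserine-binding ligands, was lower at 41.2 and 32.8 CPM in vitro and 82.01 and 128 CPM in the slices (−1.51 ± 0.27), and so were the integrin gene *Itgb3* (−5.60, −6.34 without in vitro replicate 2) and the HDL receptor gene *Scarb1* (−1.56). The alternative activation list, 11 genes tested, held 5 called higher and 3 called lower, with a median of 0.89, *Mrc1* and *Ccl24* (1.96, and 1.20 without slice replicate 2) among the former and *Egr2* (−2.46, −1.81 without in vitro replicate 2) among the latter. The lower count was 1 without in vitro replicate 1, where the median was 0.29, and 1 without slice replicate 2. Without cells holding 3 markers of another type, *Mrc1* being one of these markers, 1 and 3 of 8 were called, with a median of −0.54.

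The disease-associated microglia list split. Of 33 genes tested 15 were called lower and 7 higher (45.5% and 21.2%), with a median of −0.55, or 0.57 per cell. *Cst7*, the inhibitor cystatin F, was at 7.68 and 7.24 CPM in vitro and 917 and 1669 CPM in the slices and at 21.9 and 14.3 CPM in adult microglia, 173-fold lower in vitro (−7.44 ± 0.40, edgeR adjusted p = 8.8e-07). *Csf1*, the growth factor of the lineage, was at 0.803 and 0.786 CPM in vitro and 58.2 and 50.4 CPM in the slices (−6.08 ± 0.24, edgeR adjusted p = 2.0e-07). *Itgax*, which encodes CD11c, was at 0.0963 and 0.393 CPM in vitro and 8.15 and 21.01 CPM in the slices (−5.84 ± 0.57, −4.89 without slice replicate 2), and *Baiap2l2* at 0.0321 and 0 CPM in vitro and 20.3 and 17.3 CPM in the slices, where 1 count in vitro gives a ratio of 1207 (95% interval 216 to 47780) between slice and in vitro. For these 4 genes the slice libraries lay above the adult libraries, and the in vitro libraries lay below the slice libraries. The tetraspanin gene *Cd9* (−2.91), the lipase gene *Lpl* (−1.42), *Ctsl* (−2.19) and *Ctsd* (−1.24) were lower in vitro as well.

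Other members of the same list were higher in vitro. *Apoe*, the main lipid carrier of the brain, was at 73979 and 65392 CPM in vitro and 27036 and 20517 CPM in the slices, and at 1027 and 669.9 CPM in adult microglia (1.55 ± 0.22, edgeR adjusted p = 4.3e-04). *Lyz2*, lysozyme, was at 36986 and 36561 CPM in vitro and 3408 and 3745 CPM in the slices (3.36 ± 0.27, edgeR adjusted p = 1.2e-05), though its near copy *Lyz1* may share reads. *Gpnmb* was at 599 and 760.4 CPM in vitro and 236 and 151 CPM in the slices and at 0 in both adult libraries (1.81 ± 0.23). *Fabp5* (1.68), *Igf1* (1.57) and *Lgals1* (2.49) were higher too, and each lay above adult in both cultures. *Spp1*, osteopontin, was at 3893 and 6669 CPM in vitro and 4391 and 1253 CPM in the slices, where the groups overlapped, and was not called (0.90 ± 0.46, edgeR adjusted p = 0.15).

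Interferon-stimulated genes were higher in vitro, with 28 of 37 tested called higher and 0 lower (75.7% and 0%) and a median of 1.58. Without cells holding 3 markers of another type 17 and 0 of 35 were called, where 509 and 785 of all 10460 genes tested were called higher and lower. Promoters are shown from 250 bases before to 30 after the start (RefSeq, GRCm38.p6). They belong to the 2 genes with the largest differences among called members whose promoter held the motif below. Capitals mark the letters of the interferon-stimulated response element, GAAA, any 2 bases and GAAA again, on either strand.
Ifitm3: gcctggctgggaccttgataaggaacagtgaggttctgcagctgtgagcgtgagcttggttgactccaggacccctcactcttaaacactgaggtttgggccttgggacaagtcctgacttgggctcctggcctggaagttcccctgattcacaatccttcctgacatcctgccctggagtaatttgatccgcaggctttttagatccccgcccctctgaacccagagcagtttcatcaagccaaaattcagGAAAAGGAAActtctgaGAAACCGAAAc
Oas3: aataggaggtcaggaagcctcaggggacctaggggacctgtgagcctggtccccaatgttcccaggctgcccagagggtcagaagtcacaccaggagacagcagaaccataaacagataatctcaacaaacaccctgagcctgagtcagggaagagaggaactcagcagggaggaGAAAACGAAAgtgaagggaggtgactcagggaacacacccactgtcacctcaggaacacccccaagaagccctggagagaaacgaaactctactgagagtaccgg
The *Ifitm3* promoter lies at chr7:141010715-141010994 (minus strand) and the *Oas3* promoter at chr5:120777630-120777909 (minus strand). Of the 40 list members 30 had a promoter in the table, and 18 of these (60.0%) held the motif in the window of 300 bases around the start, as did 14 of the 21 that were called, against 3.99% of 27025 genes. A match is a string of letters and not a measured site.

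*Ifitm3*, which blocks entry of viruses into cells, was at 802 and 909 CPM in vitro and 63.5 and 39.3 CPM in the slices and at 52.1 and 24.3 CPM in adult microglia, 16.7-fold higher in vitro than in the slices (4.06 ± 0.51, edgeR adjusted p = 1.8e-04). The oligoadenylate synthetase genes *Oas2* and *Oas3*, which activate RNase L, were low in both cultures, *Oas2* at 3.56 and 3.87 CPM in vitro and 0.259 and 0.0932 CPM in the slices (4.63 ± 0.65) and *Oas3* at 2.15 and 2.16 CPM in vitro and 0.259 and 0.0932 CPM in the slices (3.84 ± 0.69). *Rtp4* was at 146 and 125 CPM in vitro and 24.1 and 13.2 CPM in the slices (2.90 ± 0.28, edgeR adjusted p = 3.3e-05), and *Ifi27l2a* at 1359 and 1498 CPM in vitro and 265 and 220.2 CPM in the slices (2.56 ± 0.40). *Ifit1* (2.63), *Cmpk2* (2.83), *Irf7* (1.58), the factor that amplifies the type I response, *Bst2* (1.32) and *Isg15* (1.28) were also higher. *Rsad2*, the antiviral enzyme viperin, was at 9.699 and 12.9 CPM in vitro and 1.94 and 4.798 CPM in the slices and was not called (edgeR adjusted p = 0.053). In both in vitro libraries these genes lay above both slice libraries.

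**Figure D5:**
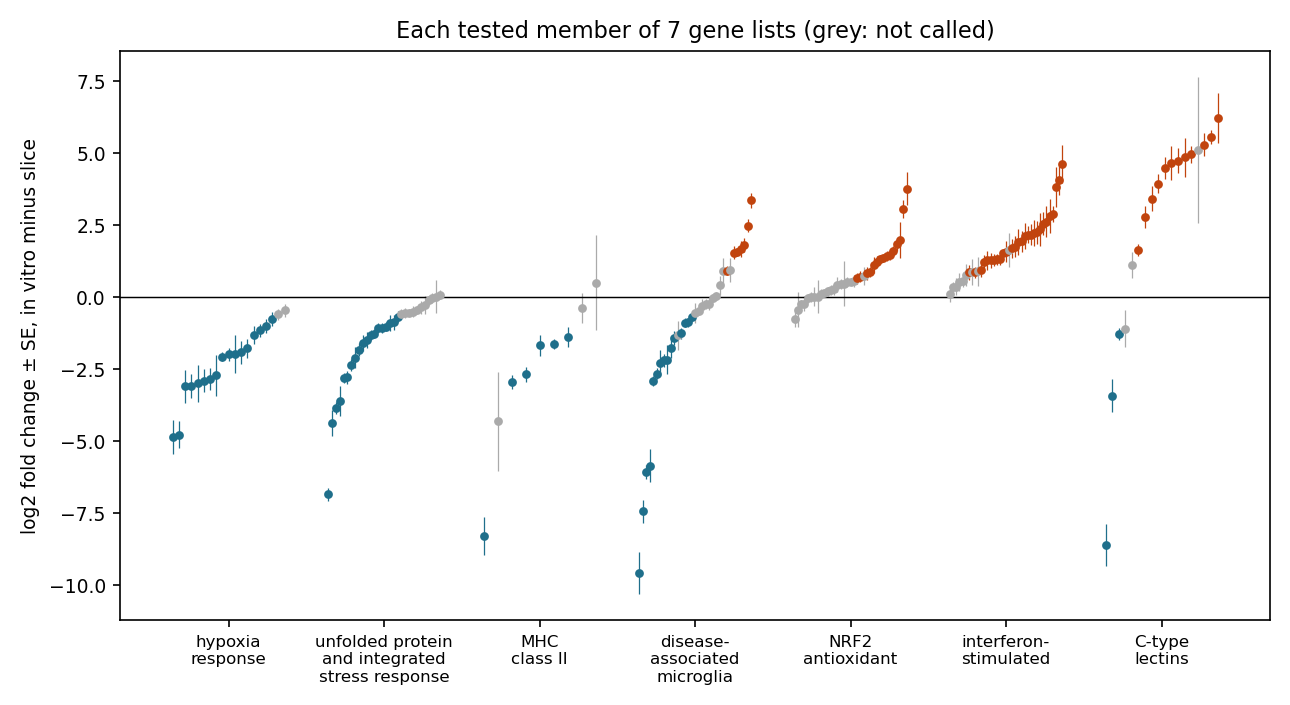
Log2 fold change (in vitro minus slice) with its SE for each tested member of 7 gene lists, in order of size within a list, orange where called higher, blue where called lower and grey where not called. The hypoxia response and the unfolded protein and integrated stress response hold no orange points and the NRF2 and interferon-stimulated lists no blue points, while the disease-associated microglia list runs from −9.58 to 3.36.

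Antigen presentation genes were read by class, with no test between the classes. Of 9 tested MHC class II genes 6 were called lower and 0 higher, with a median of −1.67 (−0.63 per cell), and 4 and 0 without in vitro replicate 2. *H2-Ab1*, a class II chain, was at 0.225 and 0.281 CPM in vitro and 38.2 and 125 CPM in the slices and at 41.2 and 28.5 CPM in adult microglia (−8.29 ± 0.66, −7.11 without slice replicate 2, edgeR adjusted p = 1.1e-05). The chain gene *H2-Aa*, whose product pairs with that of *H2-Ab1*, was at 0.0963 and 0 CPM in vitro and 0.259 and 1.49 CPM in the slices, and *H2-Eb1* at 0.385 and 0.196 CPM in vitro and 0 and 0.279 CPM in the slices. Neither of these 2 genes was called. The peptide loading gene *H2-DMb1* was lower at 49.5 and 48.5 CPM in vitro and 159 and 140.2 CPM in the slices (−1.61 ± 0.17). The invariant chain gene *Cd74* was at 34.4 and 14.4 CPM in vitro and 72.7 and 54.3 CPM in the slices (−1.38 ± 0.34) and was not called without in vitro replicate 2 (log2 −0.80, edgeR adjusted p = 0.056). Of 22 MHC class I genes 7 were called higher and 4 lower, with a median of −0.07. The counts were 6 and 0 without in vitro replicate 1 or 2, 7 and 1 without slice replicate 1 and 6 and 2 without slice replicate 2. The class I transactivator gene *Nlrc5* was higher (2.32), and *B2m* was at 4244 and 3855 CPM in vitro and 4733 and 4792 CPM in the slices and was not called.

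Cytokines and growth factors split as well, with 8 of 30 tested genes called higher and 13 lower and a median of −0.59 (0.20 per cell). Without cells holding 3 markers of another type 4 and 8 of 28 were called, with a median of −0.70. *Il6* was at 0 in both in vitro libraries and at 3.36 and 8.66 CPM in the slices, at least 162-fold lower in vitro, and at 10.8 and 11.98 CPM in adult microglia. *Il1a* was at 1.35 and 0.786 CPM in vitro and 22.9 and 23.2 CPM in the slices (−4.44 ± 0.31, edgeR adjusted p = 4.2e-06), and the angiogenic factor gene *Vegfa* at 1.19 and 0.898 CPM in vitro and 5.304 and 12.02 CPM in the slices (−3.09 ± 0.40, −2.28 without slice replicate 2). Slice libraries were the higher ones in all 3. *Tnf* was at 10.1 and 5.95 CPM in vitro and 39.8 and 12.8 CPM in the slices (−1.68) and was not called without in vitro replicate 2 (log2 −1.28, edgeR adjusted p = 0.15) or slice replicate 1 (log2 −0.68, edgeR adjusted p = 0.13). The PDGF genes moved apart, with *Pdgfc* at 13.6 and 16.2 CPM in vitro and 0.388 and 0.140 CPM in the slices (6.08 ± 0.50, edgeR adjusted p = 2.2e-05) and *Pdgfa* (−1.62) and *Pdgfb* (−1.66) lower. *Il1rn*, the natural antagonist of IL-1, was higher at 7.71 and 6.76 CPM in vitro and 2.85 and 0.792 CPM in the slices (2.25 ± 0.47, and 1.41 without slice replicate 2). *Il1b* was at 23.2 and 8.48 CPM in vitro and 5.82 and 4.84 CPM in the slices (1.59) and was not called without in vitro replicate 1 (log2 0.77, edgeR adjusted p = 0.15) or slice replicate 2 (edgeR adjusted p = 0.096).

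Of 19 tested chemokines 7 were called higher and 6 lower, with a median of 0.00. *Cxcl13*, which draws B cells, was at 0 in both in vitro libraries and at 30.01 and 30.8 CPM in the slices, at least 681-fold lower in vitro. The inflammatory chemokine gene *Ccl4* was at 72.3 and 89.4 CPM in vitro and 955 and 627 CPM in the slices (−3.29 ± 0.47), and *Ccl3* at 183 and 185 CPM in vitro and 870.3 and 732 CPM in the slices (−2.13 ± 0.18). *Ccl12*, a monocyte attractant, was at 86.2 and 85.7 CPM in vitro and 762 and 793 CPM in the slices (−3.18 ± 0.29, edgeR adjusted p = 2.6e-05). Higher in vitro were *Ppbp* at 6.17 and 7.55 CPM in vitro and 0.129 and 0 CPM in the slices, a ratio of 202 (95% interval 36.003 to 7979.5) from counts, *Ccl8* at 12.9 and 20.6 CPM in vitro and 1.03 and 0.699 CPM in the slices (4.35, not called without cells holding 3 markers of another type), *Ccl7* (2.96, 2.09 without slice replicate 2) and *Cxcl2* (2.76, 1.87 without in vitro replicate 1). *Ccl2* was at 82.99 and 71.4 CPM in vitro and 135 and 44.9 CPM in the slices, where the slice replicates lay on both sides of the in vitro values, and was not called. 

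Of 16 chemoattractant receptors 5 were called higher and 4 lower, with a median of 0.07, and 5 and 2 without in vitro replicate 2 or 1 and 2 of 12 without cells holding 3 markers of another type. The formyl peptide receptor genes *Fpr1* and *Fpr2*, whose products sense bacterial and mitochondrial peptides, were among the higher ones, *Fpr1* at 11.05 and 4.15 CPM in vitro and 0.129 and 0.279 CPM in the slices and *Fpr2* at 2.41 and 1.07 CPM in vitro and 0 and 0.0466 CPM in the slices, with *Cxcr4* (2.49). Of 26 cytokine receptors 5 were called higher and 7 lower, with a median of 0.03, and 8 and 7 without slice replicate 1 or 4 and 3 of 25 (median −0.12) without cells holding 3 markers of another type. The 5 and 7 are 19.2% and 26.9% of the cytokine receptors, near the 13.3% and 20.0% over all genes. *Tnfrsf9*, which encodes 4-1BB, was at 0.0321 and 0.0842 CPM in vitro and 2.07 and 40.4 CPM in the slices (−8.33, and −4.84 without slice replicate 2), and *Il6st*, the gp130 chain shared by receptors of the IL-6 family, at 9.41 and 9.12 CPM in vitro and 49.2 and 75.9 CPM in the slices (−2.76 ± 0.20). *Il1r2*, the decoy receptor of IL-1, was at 0 and 0 CPM in vitro and 0 and 1.44 CPM in the slices, a difference that rested on slice replicate 2 and was not called without it.

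Of 33 pattern recognition genes 9 were called higher and 11 lower (27.3% and 33.3%, beside 13.3% and 20.0% over all genes), with a median of −0.17. The lower count was 7 without in vitro replicate 1, 6 without in vitro replicate 2 and 7 without slice replicate 2. *Tlr2* was at 77.4 and 50.96 CPM in vitro and 241 and 143 CPM in the slices (−1.58 ± 0.26), and the RP105 receptor gene *Cd180* and its partner *Ly86* were lower (−1.85 and −2.11). *Tlr4*, the receptor for LPS, was higher at 21.2 and 19.9 CPM in vitro and 10.3 and 11.9 CPM in the slices (0.88 ± 0.18), as were *Tlr8* (2.63, 3.39 without slice replicate 2) and the inflammasome receptor gene *Nlrc4* at 9.25 and 7.75 CPM in vitro and 0.129 and 0.466 CPM in the slices (4.52 ± 0.56). Of 20 complement genes 3 were called higher and 9 lower, with a median of −0.56 (0.51 per cell), and 3 and 5 or 1 and 5 with in vitro replicate 1 or 2 left out. *Cfp*, properdin, which stabilises the alternative pathway convertase, was at 483 and 364 CPM in vitro and 17.98 and 3.17 CPM in the slices (5.44 ± 0.68, 4.62 without slice replicate 2, edgeR adjusted p = 1.9e-04). *C3* was at 5.49 and 2.55 CPM in vitro and 1.81 and 4.94 CPM in the slices, where the groups overlapped, and was not called.

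Of the response to low oxygen 17 of 19 tested genes were called lower and 0 higher (89.5% and 0%), with a median of −1.99 (−0.89 per cell) and of −1.31 without slice replicate 2, where 12 were called lower, as were 12 without in vitro replicate 1. Many of these genes are targets of the factor HIF-1, which binds ACGTG or GCGTG. Promoters of 2 of them are shown over the same window, with those letters, on either strand, in capitals.
Adm: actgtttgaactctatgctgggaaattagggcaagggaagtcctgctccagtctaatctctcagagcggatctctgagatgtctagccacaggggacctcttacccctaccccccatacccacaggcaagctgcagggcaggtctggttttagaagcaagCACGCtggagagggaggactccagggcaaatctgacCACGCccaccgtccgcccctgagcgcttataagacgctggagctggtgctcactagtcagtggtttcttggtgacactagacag
Egln3: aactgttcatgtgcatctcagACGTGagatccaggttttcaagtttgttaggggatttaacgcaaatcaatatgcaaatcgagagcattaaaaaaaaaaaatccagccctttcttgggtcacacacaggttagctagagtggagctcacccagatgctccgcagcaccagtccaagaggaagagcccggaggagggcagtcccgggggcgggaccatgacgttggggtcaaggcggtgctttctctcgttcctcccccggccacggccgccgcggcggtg
The *Adm* promoter lies at chr7:110627407-110627686 (plus strand) and the *Egln3* promoter at chr12:54203845-54204124 (minus strand). Of 20 members 17 had a promoter in the table, of which 16 (94.1%) held the letters, as did 15 of 15 that were called, against 46.7% of 27025 genes, so that such a short string is common in promoters at large.

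*Adm*, the vasodilator adrenomedullin, was at 0.867 and 0.870 CPM in vitro and 10.996 and 38.6 CPM in the slices and at 0.0732 and 0 CPM in adult microglia (−4.86 ± 0.60, edgeR adjusted p = 1.7e-04). *Egln3*, a prolyl hydroxylase that marks HIF for decay, was at 2.76 and 4.13 CPM in vitro and 62.4 and 126 CPM in the slices and at 1.17 and 0.644 CPM in adult microglia (−4.77 ± 0.48, edgeR adjusted p = 4.2e-05). *Bnip3*, which removes mitochondria, was at 33.9 and 39.3 CPM in vitro and 175 and 369.5 CPM in the slices (−2.90 ± 0.40), and *Hilpda*, a lipid droplet protein, at 12.97 and 16.4 CPM in vitro and 52.8 and 197 CPM in the slices (−3.09 ± 0.57). The levels of these 4 genes in slice replicate 2 were over 2 times those in replicate 1, which carried the other study label, and each slice library lay above both in vitro libraries. Without slice replicate 2 the differences were −3.58 for *Adm*, −4.10 for *Egln3*, −2.19 for *Bnip3* and −1.78 for *Hilpda*. *Ddit4* (−2.84), *Ero1l* (−2.99, and −1.56 without slice replicate 2) and *Hif1a* itself (−1.78, and −0.88 without it) were lower as well.

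Glycolysis genes were lower in vitro, 15 of 23 and 1 higher, with a median of −0.76 (0.34 per cell), and 9 and 0 without in vitro replicate 1. The glucose transporter gene *Slc2a1* was at 13.01 and 14.99 CPM in vitro and 91.6 and 88.3 CPM in the slices (−2.68 ± 0.20, edgeR adjusted p = 5.7e-06), *Slc2a3* at 0.867 and 0.617 CPM in vitro and 4.66 and 21.4 CPM in the slices (−4.20 ± 0.65, and −2.58 without slice replicate 2), and the lactate exporter gene *Slc16a3* at 33.3 and 42.9 CPM in vitro and 257 and 241 CPM in the slices (−2.71 ± 0.26). Hexokinase 2 (*Hk2*) was at 62.1 and 42.1 CPM in vitro and 209 and 248 CPM in the slices (−2.13 ± 0.24), and *Pfkfb3*, which makes the activator of phosphofructokinase, was lower (−1.95, and −1.06 without slice replicate 2). Of these, *Slc2a1* and *Slc16a3* stood above adult in the slices and below adult in vitro.

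The unfolded protein and integrated stress response held 19 of 30 genes called lower and 0 higher (63.3% and 0%), with a median of −1.04 (0.02 per cell). The factor ATF4, which drives the amino acid branch of this response, acts with C/EBP at sites of the form TGATGNAA. That motif stands in capitals, on either strand, in 2 promoters. They belong to the 2 genes with the largest differences among called members whose promoter held it.
Chac1: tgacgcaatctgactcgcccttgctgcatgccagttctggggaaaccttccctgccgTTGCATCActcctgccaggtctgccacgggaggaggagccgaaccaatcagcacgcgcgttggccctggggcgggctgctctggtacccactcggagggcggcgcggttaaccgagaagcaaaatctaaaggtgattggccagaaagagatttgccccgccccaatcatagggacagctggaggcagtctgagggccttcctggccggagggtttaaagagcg
Trib3: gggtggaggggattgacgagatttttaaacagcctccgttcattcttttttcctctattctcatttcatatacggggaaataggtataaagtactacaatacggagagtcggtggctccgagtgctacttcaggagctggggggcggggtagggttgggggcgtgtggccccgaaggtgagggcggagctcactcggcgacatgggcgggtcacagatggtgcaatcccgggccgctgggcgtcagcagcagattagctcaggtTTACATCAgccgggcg
The *Chac1* promoter lies at chr2:119350992-119351271 (plus strand) and the *Trib3* promoter at chr2:152344031-152344310 (minus strand). Of 31 members 28 had a promoter in the table, of which 7 (25.0%) held the motif, as did 5 of 17 that were called, against 4.51% of 27025 genes.

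*Phgdh*, the first enzyme of serine synthesis, was at 2.79 and 2.05 CPM in vitro and 317 and 239.8 CPM in the slices and at 171 and 186 CPM in adult microglia, 115-fold lower in vitro (−6.84 ± 0.23, edgeR adjusted p = 7.8e-08). The next enzyme of the same pathway, *Psat1*, was at 25.3 and 33.1 CPM in vitro and 195 and 206 CPM in the slices and at 11.9 and 12.1 CPM in adult microglia (−2.78 ± 0.22). The glutathione-degrading *Chac1* was at 0.385 and 0.365 CPM in vitro and 5.05 and 10.2 CPM in the slices (−4.35 ± 0.45, −3.65 without slice replicate 2), the pseudokinase gene *Trib3* at 2.15 and 2.02 CPM in vitro and 15.1 and 34.8 CPM in the slices (−3.61 ± 0.53, −2.79 without slice replicate 2), and the amino acid transporter gene *Slc7a5* at 2.18 and 2.92 CPM in vitro and 36.7 and 36.9 CPM in the slices (−3.84 ± 0.21, edgeR adjusted p = 8.8e-07). Asparagine synthetase (*Asns*, −2.10), *Atf4* (−1.60) and *Ddit3* (−1.48, not called without cells holding 3 markers of another type) were lower. *Hspa5*, the chaperone BiP that marks the unfolded protein branch, was at 612 and 622 CPM in vitro and 733 and 834 CPM in the slices and was not called (−0.34 ± 0.22, edgeR adjusted p = 0.25). Both in vitro libraries lay below both slice libraries in each of these genes.

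Immediate early genes, which respond to stimulation and to dissociation of tissue within minutes, were lower in 12 of 25 tested cases and higher in 1, with a median of −0.63 (0.45 per cell). *Klf4* was at 1.64 and 1.32 CPM in vitro and 26.1 and 57.99 CPM in the slices (−4.84 ± 0.51, −4.08 without slice replicate 2) and *Maff* at 1.12 and 1.12 CPM in vitro and 13.97 and 15.3 CPM in the slices (−3.70 ± 0.30). The dissociation markers *Fos*, at 40.2 and 24.8 CPM in vitro and 14.9 and 16.3 CPM in the slices, and *Jun*, at 98.9 and 94.5 CPM in vitro and 96.4 and 81.004 CPM in the slices, were not called. *Fosl2* was the gene called higher (1.83). The part of the different isolation of the cells in these values was not tested. Among 31 heat shock proteins and chaperonin subunits 6 were called higher and 2 lower, with a median of 0.09, and 3 and 1 without in vitro replicate 1 or without slice replicate 2. The 6 and 2 are 19.4% and 6.45% of this list, beside 13.3% and 20.0% over all genes. Without cells holding 3 markers of another type 0 and 0 of 30 were called, with a median of −0.02. *Dnajb4* was lower at 11.1 and 11.9 CPM in vitro and 23.9 and 38.8 CPM in the slices (−1.46 ± 0.22).

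The NRF2 antioxidant list held 15 of 35 genes called higher and 0 lower (42.9% and 0%), with a median of 0.54. *Mgst1*, a microsomal glutathione transferase, was at 389.6 and 382 CPM in vitro and 36.7 and 20.5 CPM in the slices and at 0.439 and 0 CPM in adult microglia (3.77 ± 0.57, edgeR adjusted p = 6.3e-04). *Gstm1* was at 111 and 109.6 CPM in vitro and 9.18 and 16.2 CPM in the slices (3.08 ± 0.31) and the peroxiredoxin gene *Prdx1* at 3318 and 3326 CPM in vitro and 1111 and 754 CPM in the slices (1.83 ± 0.21). Members that were not called included *Hmox1*, heme oxygenase, at 584 and 572 CPM in vitro and 348 and 347 CPM in the slices (edgeR adjusted p = 0.077), *Nqo1* at 0.610 and 0.309 CPM in vitro and 0.129 and 0.419 CPM in the slices (edgeR adjusted p = 0.66) and *Slc7a11* at 1.06 and 0.758 CPM in vitro and 1.94 and 0.373 CPM in the slices (edgeR adjusted p = 0.98). The ferritin genes were higher, *Fth1* at 23959 and 27219 CPM in vitro and 9607 and 8987 CPM in the slices (1.46 ± 0.16) and *Ftl1* at 35824 and 38412 CPM in vitro and 14039 and 15390.3 CPM in the slices (1.33 ± 0.15), though their pseudogenes may share reads. Of 23 metal handling genes 5 were called higher and 4 lower, with a median of 0.23, and 4 and 1 without in vitro replicate 2 or 8 and 2 without slice replicate 2. The 5 and 4 are 21.7% and 17.4% of the metal handling list, beside 13.3% and 20.0% over all genes. *Slc40a1*, the iron exporter ferroportin, was at 93.2 and 78.9 CPM in vitro and 17.1 and 16.5 CPM in the slices (2.36 ± 0.19) and at 149.9 and 164 CPM in adult microglia.

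Lysosomal proteases and hydrolases were lower in 21 of 50 tested cases and higher in 4, with a median of −0.53, or 0.53 per cell, and in 13 and 4 without in vitro replicate 2. Cathepsin L (*Ctsl*) was at 842 and 1166 CPM in vitro and 5089.6 and 4089 CPM in the slices (−2.19 ± 0.21, edgeR adjusted p = 3.7e-05), cathepsin D (*Ctsd*) at 9322 and 9916 CPM in vitro and 25962 and 19600 CPM in the slices (−1.24 ± 0.19) and cathepsin Z (*Ctsz*) at 1823 and 1814 CPM in vitro and 4664 and 4737 CPM in the slices (−1.37 ± 0.14). Arylsulfatase B (*Arsb*) and cathepsin F (*Ctsf*) were lower (−2.95 and −2.58). Cathepsin B (*Ctsb*) was at 10427 and 11708 CPM in vitro and 11162 and 10143 CPM in the slices and was not called, and sulfamidase (*Sgsh*) was higher at 20.4 and 18.5 CPM in vitro and 1.94 and 2.28 CPM in the slices (3.17 ± 0.33). Of 19 tested vacuolar ATPase subunits, which acidify lysosomes, 4 were called higher and 2 lower, with a median of 0.15.

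Of 36 lipid handling genes 12 were called higher and 8 lower, with a median of 0.22, and 7 and 5 of 35 (median −0.08) without cells holding 3 markers of another type. The phospholipid transfer protein gene *Pltp* was at 142 and 219 CPM in vitro and 34.7 and 20.9 CPM in the slices (2.72 ± 0.33), and the lipid droplet coat gene *Plin2* at 654 and 826 CPM in vitro and 366 and 316 CPM in the slices (1.12 ± 0.16). *Abcg1* (−2.05 ± 0.17), *Lpcat3* (−1.71 ± 0.19) and *Mylip* (−1.61 ± 0.18) were lower in vitro, and *Abca1*, at 145 and 129 CPM in vitro and 87.2 and 136 CPM in the slices, was not called. Among 31 cholesterol and fatty acid synthesis genes 3 were called higher and 9 lower, with a median of −0.04, and 1 and 5 without in vitro replicate 1 or 6 and 8 without slice replicate 1. *Scd2*, a desaturase, was at 0.739 and 0.758 CPM in vitro and 65.8 and 114 CPM in the slices, 119-fold lower in vitro (−6.90 ± 0.29, edgeR adjusted p = 2.2e-07), and *Dhcr7*, the last enzyme of cholesterol synthesis, was lower as well (−1.86).

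Genes of DNA replication and mitosis were called in 4 of 36 cases each way, with a median of −0.23, and the split followed the library left out, from 11 higher and 1 lower without slice replicate 1 to 2 and 13 without slice replicate 2, and with 5 and 0 or 1 and 3 without in vitro replicate 1 or 2. The 4 each way are 11.1% of the list, below the 13.3% and 20.0% over all genes. *Cenpa*, the histone of centromeres, was at 112 and 156 CPM in vitro and 55.6 and 43.2 CPM in the slices (1.44 ± 0.21). *Top2a*, the S and G2 phase topoisomerase, was at 19.5 and 29.7 CPM in vitro and 68.8 and 53.01 CPM in the slices (−1.30) and was not called without in vitro replicate 1 (log2 −0.96, edgeR adjusted p = 0.10). In cells thinned to 1800 UMIs, 12.8% and 19.3% of in vitro and 22.6% and 9.62% of slice cells held UMIs of at least 3 of these genes, against 75.0%, 83.7%, 52.8% and 28.1% unthinned. At equal depth the slice replicates thus lay on both sides of the in vitro replicates. Of 21 G1 regulators 2 were called higher and 6 lower, with a median of −0.15, and 1 and 3 without in vitro replicate 2. Cyclin D2 (*Ccnd2*) was at 40.98 and 17.2 CPM in vitro and 4.27 and 2.66 CPM in the slices (3.14 ± 0.49, 2.45 without in vitro replicate 1), cyclin E2 (*Ccne2*) at 1.32 and 1.91 CPM in vitro and 18.4 and 6.89 CPM in the slices (−2.91 ± 0.50, −2.08 without slice replicate 1) and *Myc* at 6.78 and 4.995 CPM in vitro and 37.5 and 28.6 CPM in the slices (−2.48 ± 0.40).

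Genes of the actin cytoskeleton were higher in 15 of 31 cases and lower in 1 (48.4% and 3.23%), with a median of 0.57. Gelsolin (*Gsn*), which cuts filaments, was at 347 and 392 CPM in vitro and 67.5 and 84.8 CPM in the slices (2.28 ± 0.21, edgeR adjusted p = 2.2e-05), and the scaffold gene *Iqgap1* at 131 and 148 CPM in vitro and 35.8 and 34.9 CPM in the slices (1.98 ± 0.16). Vimentin (*Vim*) was at 244 and 502 CPM in vitro and 102 and 118 CPM in the slices and at 1.61 and 1.67 CPM in adult microglia (1.76 ± 0.29). The bundling protein gene *Fscn1* was the exception, at 0.835 and 0.365 CPM in vitro and 185 and 212 CPM in the slices and at 693 and 919 CPM in adult microglia (−8.37 ± 0.38, −8.97 without in vitro replicate 1, edgeR adjusted p = 3.2e-07). Annexins, galectins and S100 genes were higher in 12 of 19 cases and lower in 1, with a median of 0.95. *Anxa1*, a mediator of the resolution of inflammation, was at 147 and 236 CPM in vitro and 1.94 and 1.77 CPM in the slices (6.70 ± 1.28, edgeR adjusted p = 0.0024). *S100a11* (5.18 ± 0.90), *S100a10* (4.54 ± 0.39, 3.89 without in vitro replicate 2), *S100a6* (4.44 ± 0.89, 3.77 without in vitro replicate 2) and *S100a4* (2.79 ± 0.38, 2.11 without in vitro replicate 2), small calcium-binding proteins, were also higher, and for *S100a6* the in vitro replicates were at 102 and 243 CPM and the slice replicates at 5.304 and 10.01 CPM.

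Of 30 integrin and matrix genes 9 were called higher and 11 lower, with a median of 0.08, and 8 and 7 without either in vitro replicate or 5 and 6 of 25 (median −0.31) without cells holding 3 markers of another type. The integrin chain gene *Itga4*, which with its partner binds VCAM-1, was at 33.2 and 30.1 CPM in vitro and 2.85 and 3.26 CPM in the slices (3.35 ± 0.26), and the hyaluronan receptor gene *Cd44* at 54.5 and 72.9 CPM in vitro and 15.01 and 18.8 CPM in the slices (1.90 ± 0.22). *Adamts1* (−4.28 ± 0.43, −4.98 without in vitro replicate 2) and the fibronectin gene *Fn1* were lower, *Fn1* at 39.7 and 98.1 CPM in vitro and 234 and 155 CPM in the slices against 0.220 and 0.386 CPM in adult microglia, with a difference of −0.91 without in vitro replicate 1 and −2.22 without replicate 2. Subunits of the respiratory complexes were higher in 14 of 83 cases and lower in 3 (16.9% and 3.61%), with a median of 0.35, near the background share in the higher direction. The counts were 6 and 4 with library size alone or 1 and 1 (median 0.20) without cells holding 3 markers of another type. *Cox5a* was at 661 and 704 CPM in vitro and 297 and 290.3 CPM in the slices (1.22 ± 0.13), and the muscle form *Cox6a2* was lower at 6.78 and 7.55 CPM in vitro and 45.4 and 248 CPM in the slices (−4.37 ± 0.72, and −2.60 without slice replicate 2). Mitochondrial ribosomal proteins were higher in 19 of 77 cases and lower in 0 (24.7% and 0%), with a median of 0.33 and *Mrpl28* at 201 and 206 CPM in vitro and 89.0 and 66.9 CPM in the slices (1.39 ± 0.17). The counts were 11 and 1 with library size alone or 3 and 0 (median 0.18) without cells holding 3 markers of another type, where 509 of all 10460 genes tested were called higher.

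Cytosolic ribosomal proteins were higher in 1 of 80 cases (*Rps27l*, 0.79) and lower in 6, with a median of −0.33, and the count turned on the slice replicates, with 1 higher and 39 lower without slice replicate 1 and 1 and 1 without slice replicate 2, and 1 and 0 without either in vitro replicate. Of 58 translation factors 0 were called higher and 4 lower, with a median of 0.04. The counts were 1 and 7 without slice replicate 1, 6 and 2 without slice replicate 2, 1 and 1 without in vitro replicate 1 and 0 and 1 without in vitro replicate 2. Of 35 constitutive proteasome subunits 3 were called higher and 0 lower, with a median of 0.36. The median was 0.47 without in vitro replicate 1 and 0.46 without slice replicate 1. The counts were 1 and 0 (median 0.26) with library size alone or 0 and 0 (median 0.24) without cells holding 3 markers of another type.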

How the data were processed

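The data were single-cell RNA-seq count tables, 1 per library, with UMIs per gene symbol and cell barcode. The authors made these counts with Cell Ranger (1.3.0 and mm10 in the submitters' processing notes) and deposited them unscaled. Of 18284 symbols, 14 were listed more than once and were summed. Cells were kept by the limits given above (19059 of 19637 barcodes), no doublet caller was run, and the ceiling of 30000 UMIs was the step that acted on very large cells. Libraries of the series shared at most 21 barcodes in a pair, and the 4 compared here at most 16.

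UMIs were summed per library and fitted with edgeR 4.0.16 in R 4.3.3 (quasi-likelihood test, TMM scaling, genes kept by filterByExpr at 10 counts) over all 10 libraries in 5 groups, group as the sole term, with 5 residual degrees of freedom. Calls needed a Benjamini-Hochberg adjusted p below 0.05 and a fold over 1.5, the thresholds of the study's methods. The SE was worked back from the test, as the absolute log2 fold change over the square root of its F statistic. Counts of replicates differed by more than sampling noise (chi-square over its degrees of freedom of 23.5 in vitro and 56.5 in the slices), so each library counted as 1 sample. Alternatives were DESeq2 1.42.0, other scalings and filters, fits of fewer libraries, the study label or replicate number as a term, thinned cells, and leaving out each library or classes of cells.

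The members, the 37 gene lists and the markers of 11 cell types were written from general knowledge with earlier results of these data known. Each list is described by its defining members and the called members with the largest differences, and outside the lists the 15 largest changes each way were considered among genes whose log2 CPM averaged 5 or more, with no overlap between groups, leaving out gene models without a proper name. Some results under this rule are not reported here. Genes of near-identical families are uncertain where reads could be shared. Thinning drew 1800 UMIs per cell without replacement. Bounds use 3 counts over the group, and intervals of count ratios are exact binomial at 95%, covering counting error only. Promoters are from RefSeq (GRCm38.p6), 250 bases before to 50 after the start, matched by symbol. Figures were drawn with matplotlib 3.10.9.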

Additional observations from a re-analysis of the deposited data

How the results depend on the processing

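The tests were repeated under 17 other settings, changing 1 choice at a time. Relative to 1616 genes called higher and 2434 lower, UMIs per cell without scaling for depth gave 6407 and 674, moving the share of calls that were higher from 39.9% to 90.5%, and leaving out cells with 3 markers of another cell type gave 509 and 785, with 49 and 38 in vitro cells left. With 1 library left out, 1231 to 1910 genes were called higher and 1229 to 2880 lower. Under the remaining settings (library size alone, DESeq2, filters on counts and cells, thinned cells, the study label as covariate or within the second label) the counts were within 1.5 times of these. On UMIs per cell, of list medians beyond a fold of 1.5, the sign turned for cytokines and growth factors (0.20), glycolysis (0.34), immediate early genes (0.45) and the unfolded protein and integrated stress response (0.0219), as did the called genes *Mef2c* (0.0707) and *Mef2a* (0.0484), and *Tgfbr2*, not called, stood at 0.91. *Mef2a* rested on slice replicate 2, at −1.06 with all libraries and −0.40 without that replicate. Of all genes called, 879 had the other sign per cell, and genes that were not called and list medians closer to 0 turned as well. Without cells holding 3 markers of another type the median of alternative activation was −0.54, *Stab1* was at −0.0506 and *Folr2* at −0.62, and that setting removes cells by *Stab1*, *Folr2* and *Mrc1*, a member of that list, themselves. There *Marco* (−5.30, edgeR adjusted p = 0.61), *Ccl8* (−5.08, edgeR adjusted p = 0.61) and *Ddit3* (0.0201, edgeR adjusted p = 0.99) were not called, and from so few in vitro cells no direction can be read for them. Of 237 called genes followed by name, 226 were also called by DESeq2, 205 per cell, 224 of 227 after thinning and 169 of 217 without the cells with other markers. With the replicate number as a block 1580 and 2316 genes were called and 232 of the 237 kept their call; the numbers name the libraries and do not pair them, since deviations of same-numbered libraries correlated at 0.034 between the groups. Depth limits the low end, since a count of 0 in slice replicate 1 allows up to 0.388 CPM.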

Other observations

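Outside the gene lists, genes whose log2 CPM averaged 5 or more over the 10 libraries were ranked by their difference, and those below are among the 15 largest in each direction. *Igfbp4*, an insulin-like growth factor binding protein, was at 492 and 385 CPM in vitro and 19.3 and 10.6 CPM in the slices and at 36.9 and 27.3 CPM in adult microglia (4.91 ± 0.31). *Wfdc17*, a secreted antiprotease-like protein of activated macrophages, was at 3711 and 3884 CPM in vitro and 333 and 94.2 CPM in the slices and at 1.25 and 2.19 CPM in adult microglia (4.16 ± 0.54, 5.33 without slice replicate 1), so that the slice replicates differed from each other as well. *Serpinb6a*, an inhibitor of serine proteases, was at 641 and 748 CPM in vitro and 54.7 and 53.8 CPM in the slices (3.68 ± 0.22), and *Cd38*, an enzyme that consumes NAD, at 184 and 123 CPM in vitro and 15.4 and 20.4 CPM in the slices (3.08 ± 0.25). *Cnn2*, an actin-binding calponin, was at 45.99 and 58.1 CPM in vitro and 1.55 and 2.75 CPM in the slices (4.48, 5.12 without slice replicate 2), and *Metrnl* at 211 and 254 CPM in vitro and 30.7 and 38.1 CPM in the slices (2.75). *Ms4a6b* (3.97, 4.97 without slice replicate 1) and *Ms4a6c* (3.54, 4.56 without slice replicate 1) were higher too, and reads may be shared within this family. *Igfbp4*, *Cnn2*, *Ms4a6b* and *Lst1* (667 and 539 CPM in vitro and 102 and 74.3 CPM in the slices) had adult levels above the slice levels, and *Wfdc17*, *Serpinb6a* and *Cd38* had adult levels below them.

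Genes outside the lists that were lower in vitro included several that adult microglia express. *Jam2*, a junctional adhesion molecule, was at 0.193 and 0.0281 CPM in vitro and 42.4 and 49.8 CPM in the slices and at 84.7 and 79.5 CPM in adult microglia (−8.66 ± 0.35, −7.75 without in vitro replicate 2). *Ecscr*, known from endothelial cells, was at 1.03 and 1.18 CPM in vitro and 195 and 143 CPM in the slices and at 553 and 541 CPM in adult microglia (−7.24 ± 0.23). *Plpp1*, a lipid phosphatase, was at 0.321 and 0.505 CPM in vitro and 118 and 183 CPM in the slices (−8.46 ± 0.33), and *Cd34*, a sialomucin, at 10.95 and 2.78 CPM in vitro and 214 and 175 CPM in the slices (−4.83 ± 0.56, −4.07 without in vitro replicate 2), with adult levels of 109 and 114 and 181 and 192 CPM, so that the slices were near or above adult. *Tmem100*, at 0.353 and 0.0842 CPM in vitro and 28.8 and 15.6 CPM in the slices, was below its adult level of 158 and 198 CPM in both cultures (−6.62, −5.83 without in vitro replicate 2). A pair of genes that act on lipid synthesis fell together, the carbohydrate-sensing factor *Mlxipl* at 0.899 and 0.477 CPM in vitro and 83.6 and 55.8 CPM in the slices (−6.65 ± 0.29) and *Thrsp*, which held 2 counts in vitro, at 0.0321 and 0.0281 CPM in vitro and 17.5 and 14.02 CPM in the slices, a ratio of 499 (95% interval 137 to 4129) between slice and in vitro. The adenosine receptor gene *Adora3* was at 2.86 and 2.53 CPM in vitro and 53.2 and 55.99 CPM in the slices (−4.34 ± 0.19) and the fatty acid receptor gene *Gpr84* at 19.1 and 9.85 CPM in vitro and 417 and 164 CPM in the slices (−4.33 ± 0.45, −3.51 without slice replicate 1).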
